A study of Mus musculus with 50 samples.

Results

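The 10 genes described here, Nanog, Klf2, Klf4, Klf5, Esrrb, Nr5a2, Tfcp2l1, Tbx3, Prdm14 and Zfp42, encode transcription factors of naive pluripotency. They were taken by name as rows of 2 deposited expression tables, 10 of 24412 rows in the first and 10 of 24413 in the second. No cut-off on a measured value picked them, but they were chosen with earlier results of these data known. Naive pluripotency is the state of the preimplantation epiblast that mouse embryonic stem cells keep in culture. Its transcription factors bind many of the same enhancers as Oct4 (Pou5f1) and Sox2, activate each other, and pass on signals from LIF through Stat3 and from WNT through Tcf7l1. When cells leave for the primed state or for primitive endoderm, most of these genes are turned down while Oct4 persists.

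RNA was sequenced from TT2 mouse embryonic stem cells that lack enzymes of histone H3 lysine 9 methylation, in 50 libraries that form 25 groups of 2. The first table (18 libraries) held control cells, Setdb1-KO, Suv39h1/2-DKO, Suv39h1/2;Setdb1-TKO, G9a-KO, G9a;Setdb1-DKO, G9a;Suv39h1/2-TKO, G9a;Suv39h1/2;Setdb1-QKO (QKO below) and QKO cells that also lacked Dux (Dux-KO QKO), where Dux is the homeobox factor of the 2-cell embryo's gene program. The second table (32 libraries) held the first 8 genotypes in cells with a doxycycline-inducible Dux transgene (Tet-on-Dux), each without and with doxycycline. The dose label was 0.2 for control and Setdb1-KO and 1 for the other 6 genotypes, with no unit. Dux-KO stood in the genotype field of all 32 of these libraries but not in their titles, so the controls of this table carried it too. Titles of Setdb1-deficient groups carried OHT and the others NT, which the labels do not explain, so OHT and the loss of Setdb1 cannot be told apart. Titles also carried a cell name, such as SE for Suv39h1/2-DKO and SG for G9a-KO. It stayed the same on loss of Setdb1 but changed with every loss of G9a, of Suv39h1 and Suv39h2 or of Dux. Those losses, and differences between backgrounds, cannot be told apart from differences between the named cells. Whether a genotype was 1 clone or several was not given in the sources used here, and the labels did not call the 2 libraries of a group separate cultures, so p-values measured only the spread between these samples.

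Values were gene-level TPM, a relative transcript abundance that corrects for transcript length and so allows levels of different genes to be set side by side. TPM keeps no read depth, so the depth behind a value was not known, and 2 libraries a group limit its precision. Between 11742 and 13274 genes reached 1 TPM in a library. Setdb1 lay at 51 TPM in control and 22.9 to 35.1 TPM (group means) where it was targeted in the first table, and Ehmt2, the G9a gene, at 87.3 against 7.43 to 26.5 TPM. Suv39h1 (32.8 TPM in control) was at 11.3 to 22.6 TPM and Suv39h2 (20.9 TPM) at 12.8 to 16.1 TPM where they were targeted, just under the group means of G9a;Setdb1-DKO, where they were not (23.1 and 16.7 TPM). Nothing used here says which part of either gene was deleted. The cells carried their defining markers, with Pou5f1 at 1954 to 2621 TPM in the first table and 1248 to 2277 TPM in the second. Of 10 fibroblast genes, Col3a1 and Postn did not pass 0.1574 TPM in any library. Others reached more in single libraries, among them Col5a2 (9.593 TPM), Thy1 (7.274 TPM) and Lum (6.727 TPM). In the first table the 10 summed to 5.29 to 5.302 TPM in control. Their sums ran from 3.816 TPM in a Suv39h1/2-DKO library to 13.15 TPM in a G9a-KO library. Within the second table, 6 libraries stood apart by high levels of Snhg transcripts: control without doxycycline replicate 1, Setdb1-KO replicate 2 in both states, G9a-KO with doxycycline replicate 2 and G9a;Setdb1-DKO replicate 2 in both states. Their mean log2 Snhg level was 4.163 to 4.612, against at most 3.258 in the other libraries of that table. All 18 libraries of the first table lay at 4.296 to 4.873, so the 6 stood apart only within their own table. They are called libraries of high nuclear RNA below, although only Snhg genes were averaged and nuclear RNA was not measured. Fits without these 6 libraries are given where they change a result. In bulk RNA, fewer cells with a transcript and less transcript per cell cannot be told apart.

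Promoter sequences of 7 of the 10 genes were found in RefSeq (GRCm38.p6), with 10 promoters in all, and 5 of them are shown because their genes carry the results below and differ in the binding motifs they hold. Each is the 250 bases before the transcription start, 5′ to 3′ on the gene's strand, with matches to ATGCAAA (the octamer bound by Oct4) or GGGTGTG (a motif of Klf factors) on either strand in capitals. Nanog lies on the plus strand (chr6:122707239-122707488), Zfp42 on the minus strand (chr8:43307010-43307259), Esrrb on the plus strand (chr12:86360867-86361116), Klf4 on the minus strand (chr4:55532476-55532725) and Nr5a2 on the minus strand (chr1:136960449-136960698).
Nanog: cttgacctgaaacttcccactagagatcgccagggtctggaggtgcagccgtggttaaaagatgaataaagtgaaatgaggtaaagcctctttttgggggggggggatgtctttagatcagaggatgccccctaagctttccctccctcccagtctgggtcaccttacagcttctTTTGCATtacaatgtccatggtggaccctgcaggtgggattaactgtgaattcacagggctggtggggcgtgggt
Zfp42: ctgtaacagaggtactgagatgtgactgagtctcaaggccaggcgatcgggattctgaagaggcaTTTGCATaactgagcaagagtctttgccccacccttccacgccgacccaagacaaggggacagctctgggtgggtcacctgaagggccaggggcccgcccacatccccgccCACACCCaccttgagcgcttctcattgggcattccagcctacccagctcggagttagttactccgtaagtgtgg
Esrrb: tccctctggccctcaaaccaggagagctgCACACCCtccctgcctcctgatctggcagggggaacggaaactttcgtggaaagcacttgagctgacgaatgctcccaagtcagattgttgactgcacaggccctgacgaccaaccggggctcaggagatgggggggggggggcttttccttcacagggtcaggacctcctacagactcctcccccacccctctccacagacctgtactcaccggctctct
Klf4: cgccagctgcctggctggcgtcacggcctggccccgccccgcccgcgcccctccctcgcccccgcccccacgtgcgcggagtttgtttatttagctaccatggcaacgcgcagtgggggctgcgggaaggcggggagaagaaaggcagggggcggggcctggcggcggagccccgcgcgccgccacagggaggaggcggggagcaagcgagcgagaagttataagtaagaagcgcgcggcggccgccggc
Nr5a2: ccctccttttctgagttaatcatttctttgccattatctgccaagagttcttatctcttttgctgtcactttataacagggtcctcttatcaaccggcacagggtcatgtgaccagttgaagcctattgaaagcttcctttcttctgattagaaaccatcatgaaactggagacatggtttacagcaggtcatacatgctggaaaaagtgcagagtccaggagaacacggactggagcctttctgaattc

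The octamer was found in the Nanog and Zfp42 promoters, 69 and 179 bases before the start, and in 4.12% of all 32851 RefSeq promoters read over the same length. The Klf motif was found in Zfp42, 68 bases before the start, and in Esrrb, 215 bases before it, against 6.93% of all promoters. The Klf4 and Nr5a2 promoters shown held neither. None of the 10 promoters held AAGGTCA (bound by Esrrb and Nr5a2, 4.08% of all promoters), TTCCNGGAA (a Stat motif, 0.913%) or GATTNAATC (the core of the Dux motif, 0.247%). These are matches of letters in a window and say nothing of binding. Klf5, Tbx3 and Prdm14 had no entry. Among overlapping annotations, Tbx3os1 runs antisense to Tbx3 and 3 small or pseudogene models lie within Tfcp2l1, and Nanog has pseudogene copies, Nanog-ps1 and Nanog-ps2. None of these is a row of the tables, and how reads shared by copies or strands were assigned was not given in the sources used here, so the Nanog level is uncertain to that extent.

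Levels of the 10 genes spanned a wide range. Over the 18 libraries of the first table Zfp42 was the most abundant (428.9 to 935.3 TPM, median 644), followed by Klf5 (median 298.7), Nanog (288.5), Esrrb (256.8), Klf4 (139.97), Klf2 (137), Tfcp2l1 (64.1), Tbx3 (62.4), Nr5a2 (28.3) and Prdm14 (6.52 to 26.96, median 14.9). The same gene was highest in the second table, where Zfp42 had a median of 424.4 TPM. There Nr5a2 (24.6) and Prdm14 (26.7) were lowest again. Every member passed the filter on low values in both tables. Between genotypes of the first table, the ratio of the highest to the lowest group mean was largest for Prdm14 (3.57), Nr5a2 (3.17) and Tbx3 (3.14) and smallest for Klf5 (1.36) and Tfcp2l1 (1.51).

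**Figure D1:**
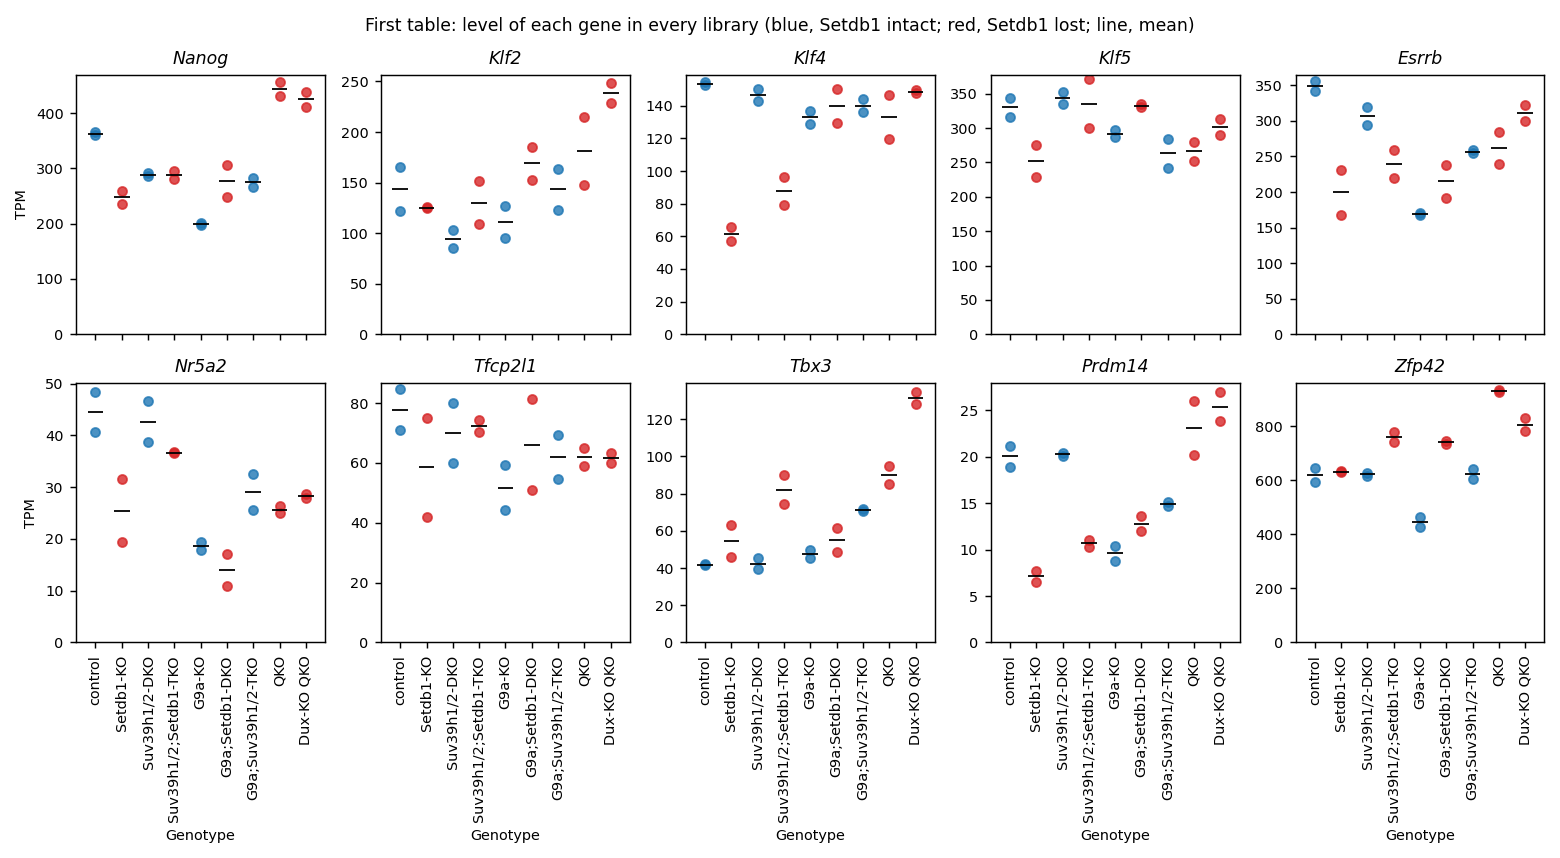
TPM of the 10 genes in every library of the first table, a panel for each gene with a linear axis from 0, with points for the 2 libraries of a genotype (blue with Setdb1, red without) and a line for their mean. Prdm14 and Klf4 are lowest in Setdb1-KO, Nanog, Esrrb and Zfp42 are lowest in G9a-KO, and Tbx3 is highest in Dux-KO QKO.

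Which of these genes differed in each genotype was read against control libraries with limma on log2(TPM+1), and log2 fold changes below are on that scale. A gene was called where its Benjamini-Hochberg adjusted p lay under 0.05 and its log2 fold change reached 1 in size. Unless a direction is given, shares of all genes called count both directions. Few members were called. In Setdb1-KO 2 of 10 fell, Klf4 and Prdm14. Of all 13862 genes tested 6.28% were called in either direction, 571 higher and 300 lower. In G9a-KO 2 of 10 fell, Esrrb and Nr5a2, where 9.26% of all genes were called in either direction, 765 higher and 519 lower. Loss of Suv39h1 and Suv39h2 alone called 0 of 10 (limma, with 2 at an unadjusted p under 0.05, as had 11.2% of all genes), against 0.541% of all genes called. Whether the single knockouts differ from each other was not tested. The comparisons with control share the same 2 control libraries.

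With losses combined, the called genes were Nr5a2 and Tbx3. G9a;Setdb1-DKO called 1 of 10, Nr5a2, which fell, against 14.4% of all genes. QKO called 1 of 10, Tbx3, which rose, against 15.6%, and Dux-KO QKO likewise called Tbx3 alone, against 21.2%. Suv39h1/2;Setdb1-TKO called 0 of 10 (6.99% of all genes) and G9a;Suv39h1/2-TKO 0 of 10 (6.72%), and 6 members in each had an unadjusted p under 0.05 by limma, as had 42.2% and 37% of all genes. With 10 members, counts of 0 to 2 are close to these background shares, which count both directions. Genes called lower alone made up a smaller share in Setdb1-KO and G9a-KO. Without Setdb1-KO replicate 2 the Setdb1-KO count was 4, with Esrrb (-1.05) and Nr5a2 (-1.16) added.

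Without the requirement of a 2-fold change, more members differed from control. In Setdb1-KO 6 of 10 were lower at an adjusted p under 0.05, against 21.6% of all genes that were lower by this rule, and the median over the 10 was -0.50 against -0.12 for all genes. In G9a-KO 5 of 10 were lower, against 18.1% of all genes, with a median of -0.53 against -0.01. QKO had 3 higher (Nanog, Tbx3 and Zfp42) and 3 lower (Klf5, Esrrb and Nr5a2), a count near the 53.3% of all genes that passed in either direction, with a median of -0.01 against -0.05. Scaling by median ratios moved the median of all genes in Setdb1-KO from -0.118 to 0.003 and that of the members to -0.36, with 8 of 10 below 0 in either case.

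**Figure D2:**
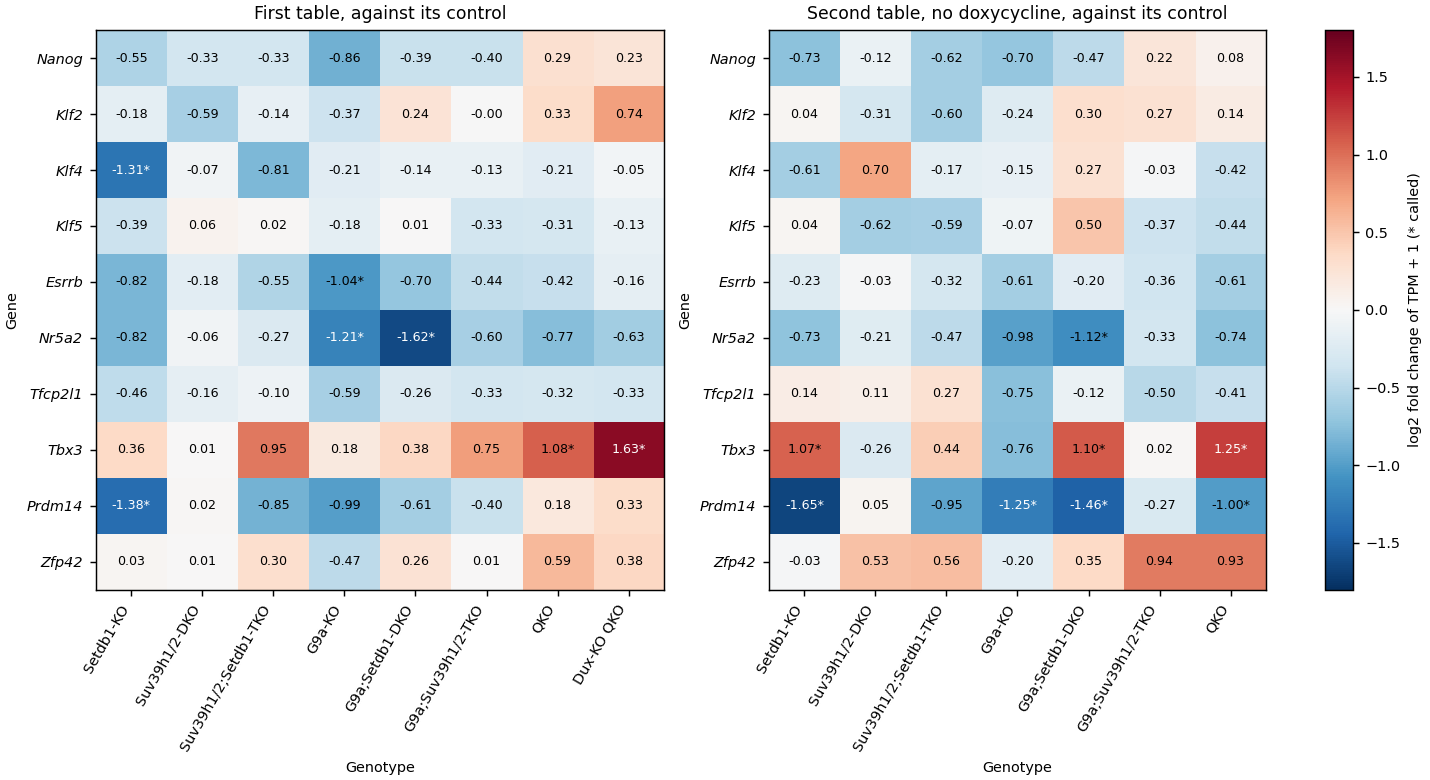
Log2 fold change of each gene (rows) in each genotype against its control (columns), on the left for the first table and on the right for the second without doxycycline, from blue for lower to red for higher, with a star on called values. Prdm14 is lower in most genotypes of both tables that lack Setdb1 or G9a, and Tbx3 is the gene most often called higher.

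Nanog (chr6:122707489-122714633, GRCm38, GENCODE vM21), the homeodomain factor that stabilises self-renewal, stood at 366 and 359.7 TPM in the control libraries. It read 236.2 and 259.2 TPM in Setdb1-KO, 285.3 and 291.6 in Suv39h1/2-DKO and 197.2 and 200.6 in G9a-KO. It read 456.7 and 431.5 TPM in QKO. Setdb1-KO, Suv39h1/2-DKO and G9a-KO libraries thus all lay below both controls, and both QKO libraries lay above them. The difference from control was -0.55 (SE 0.0977, adjusted p = 0.00065) in Setdb1-KO, -0.86 (adjusted p = 8.03e-06) in G9a-KO and 0.29 (adjusted p = 0.0214) in QKO by limma, all under 2-fold. In G9a;Setdb1-DKO it was at 248.4 and 306.2 TPM (-0.39, adjusted p = 0.00401) and in G9a;Suv39h1/2-TKO at 266 and 283.2 TPM (-0.40, adjusted p = 0.00648).

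The Klf factors, zinc finger proteins that overlap in function and bind the same sites, did not move together. Klf4 (chr4:55527143-55532466, minus strand), a LIF target and one of the reprogramming factors, was at 154.3 and 152.8 TPM in control libraries and at 57.3 and 65.6 TPM in Setdb1-KO. That fall of 1.31 (SE 0.12, adjusted p = 1.47e-06, limma) was the largest of the Klf genes. In Suv39h1/2;Setdb1-TKO Klf4 was at 96.4 and 79.3 TPM (-0.81, adjusted p = 0.000144). In the other 6 genotypes its group mean stayed between 132.9 and 148.5 TPM, close to control. Those 6 included G9a;Setdb1-DKO (129.5 and 150 TPM) and QKO (146.9 and 119.5 TPM), both of which lack Setdb1.

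Klf5 (chr14:99298691-99315036), the most abundant of the 3, was at 344.3 and 315.7 TPM in control and 228.5 and 276.1 TPM in Setdb1-KO, its lowest group (-0.39, SE 0.12, adjusted p = 0.022). Klf2 (chr8:72319033-72321656), whose protein is destabilised by Mek and Erk signalling, was at 165.6 and 121.9 TPM in control and varied within groups, with a median SD of 19.8% of the mean. It was highest in Dux-KO QKO, at 228.5 and 248.7 TPM (0.74, SE 0.217, adjusted p = 0.00919), and lowest in Suv39h1/2-DKO, at 103 and 85.5 TPM (-0.59, adjusted p = 0.257). In 7 of 8 steps down the order of its group means, the libraries of neighbouring genotypes overlapped.

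Both nuclear receptors fell in G9a-KO. Esrrb (chr12:86361117-86521628), an orphan receptor that acts downstream of WNT signalling and can stand in for Nanog, was at 341.7 and 355.8 TPM in control. In G9a-KO it was at 168 and 170.6 TPM, a called fall of 1.04 (SE 0.143, adjusted p = 5.17e-05, limma). It read 168.3 and 231.6 TPM in Setdb1-KO (-0.82, adjusted p = 0.000581) and 192.1 and 238.4 TPM in G9a;Setdb1-DKO (-0.70, adjusted p = 0.000946). Control was its highest group, and neither library of any other genotype reached the lower control library. Whether the G9a and Setdb1 differences themselves differ was not tested.

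Nr5a2 (chr1:136842571-136960448, minus strand), the receptor Lrh-1 that can replace Oct4 in reprogramming, was at 40.7 and 48.3 TPM in control. It fell to 17.9 and 19.4 TPM in G9a-KO (-1.21, SE 0.212, adjusted p = 0.000426) and to 10.9 and 17.2 TPM in G9a;Setdb1-DKO (-1.62, adjusted p = 1.84e-05, limma). With Suv39h1 and Suv39h2 lost as well, the levels lay higher, at 25.6 and 32.5 TPM in G9a;Suv39h1/2-TKO and 25.1 and 26.3 TPM in QKO (-0.77, adjusted p = 0.00711). All 5 groups without G9a stood under both control libraries. So did groups that keep G9a but lack Setdb1, with neither called. They were Setdb1-KO, at 19.3 and 31.6 TPM (-0.82), and Suv39h1/2;Setdb1-TKO, at 36.8 and 36.5 TPM (-0.27).

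Tfcp2l1 (chr1:118627945-118685168), a Grainyhead-family factor downstream of LIF and WNT, had no adjusted p under 0.05 against control in the first table. It was at 71 and 84.7 TPM in control and lowest in G9a-KO, at 44.1 and 59.2 TPM (-0.59, SE 0.253, adjusted p = 0.0861). Neighbouring genotypes overlapped at all 8 steps of its order.

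Tbx3 (chr5:119670669-119684724), a T-box factor that acts in LIF signalling and also in the entry to extraembryonic endoderm, went the other way. It was at 41.5 and 42.2 TPM in control, its lowest group, and at 94.6 and 84.99 TPM in QKO, a rise of 1.08 (SE 0.149, adjusted p = 2.84e-05, limma). Dux-KO QKO libraries stood higher still, at 127.9 and 134.8 TPM, which is 1.63 above control (adjusted p = 2.89e-07). Suv39h1/2;Setdb1-TKO, at 89.9 and 74.5 TPM, lay just under the 2-fold rule (0.95, adjusted p = 0.000215), and G9a;Suv39h1/2-TKO, at 70.5 and 71.5 TPM, differed by 0.75 (adjusted p = 0.00161). The single knockouts Setdb1-KO (46.2 and 63.1 TPM) and G9a-KO (45.5 and 49.5 TPM) lay above both controls, with adjusted p-values of 0.0762 and 0.396 by limma. The Setdb1-KO value depends on the scaling: 0.36 as deposited became 0.50 (adjusted p = 0.000994) by median ratios. In G9a-KO it was 0.18 as deposited and 0.20 (adjusted p = 0.112) by median ratios.

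Prdm14 (chr1:13113457-13127163, minus strand), a PR-domain protein that represses Fgfr signalling and de novo DNA methyltransferases, was the least abundant member. It was at 21.2 and 18.96 TPM in control and at 6.52 and 7.72 TPM in Setdb1-KO, a fall of 1.38 (SE 0.137, adjusted p = 3.39e-06, limma). G9a-KO libraries read 10.4 and 8.80 TPM (-0.99, adjusted p = 5.52e-05), at the edge of the 2-fold rule, and it was called without control replicate 2 (-1.07) or G9a-KO replicate 1 (-1.10). The level was 11 and 10.3 TPM in Suv39h1/2;Setdb1-TKO and 12.1 and 13.6 TPM in G9a;Setdb1-DKO. QKO, at 25.98 and 20.2 TPM, overlapped control (0.18, adjusted p = 0.276).

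Zfp42 (chr8:43295063-43306980, minus strand), known as Rex1 and used as a reporter of the naive state, was at 593.1 and 646.4 TPM in control. G9a-KO was the only group whose libraries lay below both controls, at 428.9 and 464.9 TPM (-0.47, SE 0.0784, adjusted p = 0.000276). It stood at 935.3 and 925.7 TPM in QKO (0.59, adjusted p = 2.13e-05) and at 741.3 and 779.9 TPM in Suv39h1/2;Setdb1-TKO (0.30, adjusted p = 0.01). Setdb1-KO libraries, at 634.8 and 629 TPM, lay inside the control range.

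Markers of other cell states moved in these same groups. Their lists were chosen with earlier results of these data known, so the counts are not an independent reading. Of 18 primitive endoderm genes, 17 were called higher in G9a-KO and 16 in G9a;Suv39h1/2-TKO, where 9.26% and 6.72% of all genes were called in either direction. The summed level of these 18 was 766 to 779 TPM in control, 2590 to 3006 in G9a-KO, 2188 to 2871 in G9a;Suv39h1/2-TKO, 694 to 912 in Setdb1-KO and 1000 to 1309 in QKO. Of 18 genes of the 2-cell embryo, 17 were called higher in Setdb1-KO and 18 in G9a-KO and in QKO. Shares of all genes called there in either direction were 6.28%, 9.26% and 15.6%. Sums of the 2-cell genes were 98.6 to 109 TPM in control, 1774 to 2091 in Setdb1-KO, 604.6 to 637.7 in G9a-KO and 7900 to 8060 in QKO. In Setdb1-KO, 12 trophoblast genes summed to 79.54 to 86.62 TPM, against 42.53 to 44.55 TPM in control. There 10 germ layer genes summed to 66.6 to 72.38 TPM, against 161.1 to 162.6 TPM in control. The part of any of these states in the changes of the naive factors was not tested.

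The Setdb1 step was then read on each background, to ask whether these genes respond to its loss in the same way when other enzymes are already missing. Within Suv39h1/2-DKO cells its loss called 0 of 10 members (limma, 5 at an unadjusted p under 0.05) against 6.41% of all genes. Within G9a-KO cells it called 0 of 10 (5 unadjusted) against 5.43%, and within G9a;Suv39h1/2-TKO cells 0 of 10 (4 unadjusted) against 9.1%. The unadjusted threshold was passed by 37%, 37.7% and 49.9% of all genes in that order. The direction differed by background. In otherwise intact cells 8 of 10 members were lower without Setdb1, whereas in G9a-KO cells 9 of 10 were higher, with a member median of 0.33 against -0.02 for all genes.

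Prdm14 shows the pattern most plainly. Loss of Setdb1 took its mean from 20.1 to 7.12 TPM in intact cells and from 20.3 to 10.7 TPM in Suv39h1/2-DKO cells (-0.87, SE 0.137, adjusted p = 0.000257). In G9a-KO cells the same step took it from 9.62 to 12.8 TPM (0.38, adjusted p = 0.0547), and in G9a;Suv39h1/2-TKO cells from 14.9 to 23.1 TPM (0.59, adjusted p = 0.00347). Klf4 went from 146.7 to 87.8 TPM in Suv39h1/2-DKO cells (-0.74, adjusted p = 0.000328) but from 132.9 to 139.7 TPM in G9a-KO cells (0.07, adjusted p = 0.719), where the libraries overlapped. Nanog went from 198.9 to 277.3 TPM in G9a-KO cells (0.47, adjusted p = 0.00261) and from 274.6 to 444.1 TPM in G9a;Suv39h1/2-TKO cells (0.69, adjusted p = 6.25e-05). Zfp42 was higher after this step on both backgrounds, by 0.73 (adjusted p = 9.03e-06) and 0.58 (adjusted p = 4.39e-05).

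**Figure D3:**
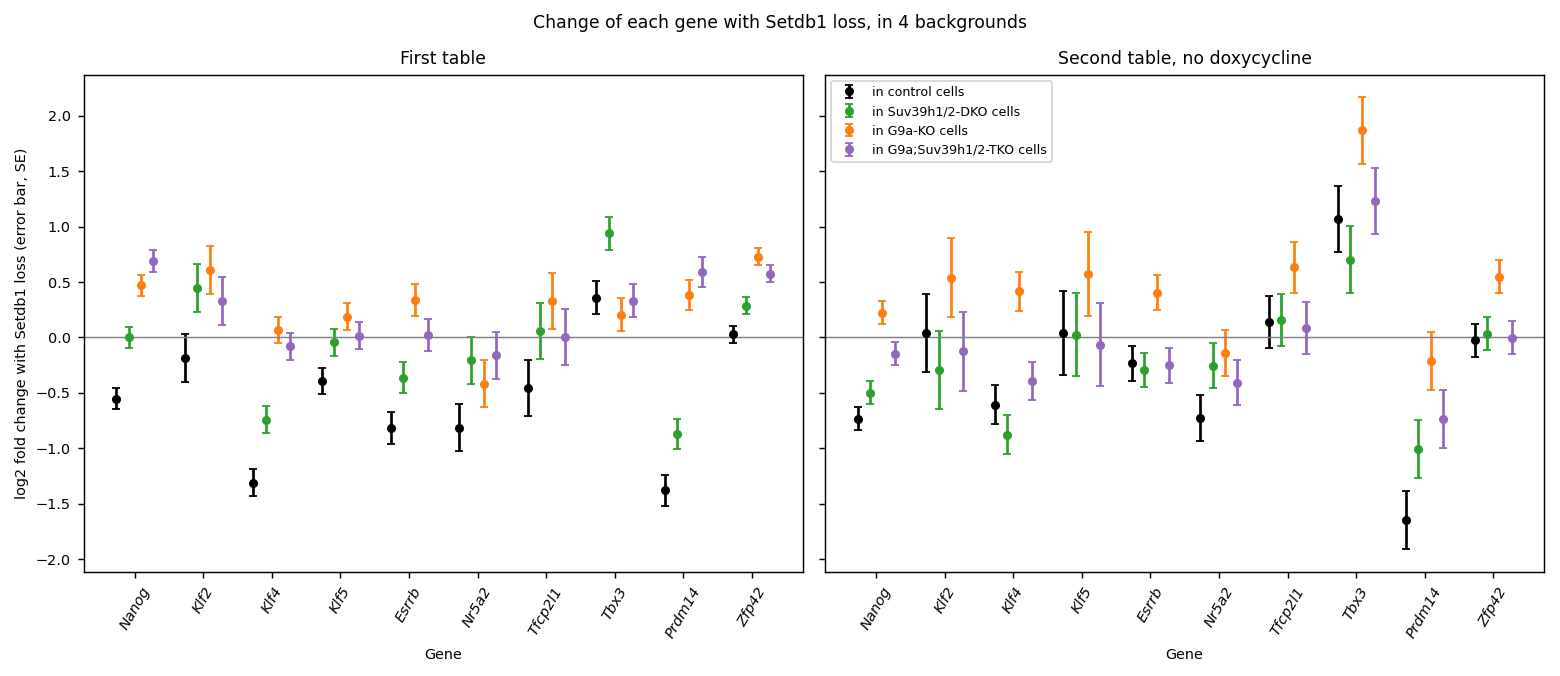
Log2 fold change on loss of Setdb1 for each gene on 4 backgrounds (colours), in the first table on the left and the second without doxycycline on the right, with bars for the standard error of the model. In the first table Prdm14, Klf4 and Nanog lie below 0 in intact cells, while Prdm14 and Nanog lie above 0 in cells that lack G9a.

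The difference between these responses was tested as an interaction in the same model. Relative to intact cells, the Setdb1 response in G9a-KO cells was called for 4 of 10 members, each more positive. Of all genes 4.18% were called in either direction, 331 more positive and 249 more negative. The differences of the 4 members were 1.76 for Prdm14 (SE 0.194, adjusted p = 5.53e-05), 1.38 for Klf4 (adjusted p = 0.000138), 1.15 for Esrrb (adjusted p = 0.00218) and 1.02 for Nanog (adjusted p = 0.000289). In G9a;Suv39h1/2-TKO cells the response was called for 3 of 10 against 5.48% of all genes, 438 more positive and 322 more negative. The 3 were Prdm14 (1.97, adjusted p = 1.32e-05), Nanog (1.24, adjusted p = 3.82e-05) and Klf4 (1.23, adjusted p = 0.000237). In Suv39h1/2-DKO cells 0 of 10 were called (limma, 6 at an unadjusted p under 0.05, as had 6.2% of all genes) against 0.166%, although all 10 differences were above 0, as they were after scaling by median ratios. The 3 interactions share the Setdb1-KO and control libraries. Tbx3 was the member that went against the rest, with differences of -0.15 and -0.03 in the backgrounds without G9a (adjusted p = 0.716 and 0.954). Medians over the 10 members were 0.79, 0.60 and 0.53 on the backgrounds G9a-KO, G9a;Suv39h1/2-TKO and Suv39h1/2-DKO, against 0.11, 0.07 and 0.08 for all genes. Esrrb and Nanog in the G9a-KO background rested on single libraries, with ranges of 0.925 to 1.38 and 0.869 to 1.17 when each library was left out in turn. Both lost the call without Setdb1-KO replicate 1 and without G9a;Setdb1-DKO replicate 2, and Nanog also after scaling by median ratios (0.904, adjusted p = 6.14e-05).

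Dux-KO QKO cells were set against QKO cells, which carry another cell name in their titles, so Dux removal and that name cannot be told apart. The 2-cell genes summed to 142.9 to 154.5 TPM in Dux-KO QKO against 7900 to 8060 TPM in QKO, yet 0 of 10 members were called between the groups (limma, 2 at an unadjusted p under 0.05, as had 49.5% of all genes), against 6.54% of all genes. Tbx3 was 0.55 higher without Dux (SE 0.149, adjusted p = 0.00923) and Zfp42 0.21 lower (-0.21, SE 0.0784, adjusted p = 0.0465). The other 8 had adjusted p-values of 0.139 or more, among them Nanog, at 411.5 and 438.8 TPM without Dux, which overlapped QKO. These sizes depend on the scaling: by median ratios Tbx3 was at 0.30 (adjusted p = 0.0235), Zfp42 at -0.46 (adjusted p = 0.00447) and Nanog at -0.31 (adjusted p = 0.00414). All-gene medians were 0.224 as deposited and 0.009 after scaling by median ratios, and 3 members lay below 0 as deposited against 7 after scaling, where Klf4, Klf5, Nr5a2 and Prdm14 changed sign. Primitive endoderm sums were 2647 to 2764 TPM in Dux-KO QKO, and their part in the Tbx3 difference was not tested.

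The second table gave the same genotypes in Tet-on-Dux cells labelled Dux-KO, and its libraries without doxycycline were compared with the matching control. The tables were normalised separately, so no level is set across them. Prdm14 and Tbx3 made up most of the calls. In Setdb1-KO 2 of 10 were called against 2.52% of 13819 genes tested, Prdm14 lower and Tbx3 higher. In G9a-KO 1 of 10 was called, Prdm14, against 7.97%. G9a;Setdb1-DKO called 3 of 10 against 13.2%, with Prdm14 and Nr5a2 lower and Tbx3 higher, and QKO called 2 of 10 against 14%, with Prdm14 lower and Tbx3 higher. Suv39h1/2-DKO (1.56% of all genes), Suv39h1/2;Setdb1-TKO (3.5%) and G9a;Suv39h1/2-TKO (6.61%) called 0 of 10 each, with 2, 4 and 4 at an unadjusted p under 0.05 by limma, as had 20.4%, 26.3% and 31.2% of all genes.

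Prdm14 was at 54.4 and 61.4 TPM in this control without doxycycline. It was at 20.96 and 15 TPM in Setdb1-KO (-1.65, SE 0.263, adjusted p = 0.000496) and at 28.6 and 19.7 TPM in G9a-KO (-1.25, adjusted p = 0.00183). It was at 23.2 and 17.9 TPM in G9a;Setdb1-DKO (-1.46, adjusted p = 0.000236) and at 27.7 and 29 TPM in QKO (-1.002, adjusted p = 0.00554). Both Suv39h1/2-DKO libraries, at 53.5 and 67.2 TPM, stayed at the control level. The QKO call sat on the 2-fold rule and was -0.87 after scaling by median ratios, and was lost without control replicate 2 or QKO replicate 1. The G9a-KO call was lost without G9a-KO replicate 2, at -0.987 (adjusted p = 0.0508).

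Tbx3 stood at 49.2 and 40.8 TPM in this control, 79.4 and 113.6 TPM in Setdb1-KO (1.07, SE 0.3, adjusted p = 0.0372), 86.7 and 109.3 TPM in G9a;Setdb1-DKO (1.10, adjusted p = 0.00749) and 98.9 and 117.5 TPM in QKO (1.25, adjusted p = 0.00287). It read 27.1 and 24.9 TPM in G9a-KO, below both controls (-0.76, adjusted p = 0.0734). The Setdb1-KO call was lost without either control library or without Setdb1-KO replicate 2 (0.812 to 1.32 over single libraries left out), and without the 6 libraries of high nuclear RNA it was 0.944 (adjusted p = 0.286). Without those libraries the G9a;Setdb1-DKO value was 1.07 (adjusted p = 0.0739), and that call was also lost without control replicate 2 (0.971, adjusted p = 0.0657) or G9a;Setdb1-DKO replicate 2 (0.938, adjusted p = 0.066).

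Nanog was lower in Setdb1-KO, at 276.3 and 266.8 TPM, than in this control, at 480.3 and 426 TPM (-0.73, SE 0.104, adjusted p = 0.000149). It was also lower in G9a-KO, at 278.6 and 278.4 TPM (-0.70, adjusted p = 6.82e-05). QKO libraries, at 482.6 and 471.3 TPM, overlapped control and G9a;Suv39h1/2-TKO libraries, at 554.3 and 503.3 TPM, lay above it (0.22, adjusted p = 0.147). Nr5a2 was at 36.6 and 40.8 TPM in control, 24.5 and 14.8 TPM in G9a-KO (-0.98, adjusted p = 0.0017) and 16.8 and 17.7 TPM in G9a;Setdb1-DKO (-1.12, adjusted p = 0.000276). The receptor Esrrb, at 276.3 and 261.3 TPM in control, was at 199.5 and 155.5 TPM in G9a-KO (-0.61, adjusted p = 0.00858) and 168.7 and 182.8 TPM in QKO (-0.61, adjusted p = 0.00495). Klf4 was at 103 and 78.6 TPM in control and at 50.4 and 68.4 TPM in Setdb1-KO (-0.61, adjusted p = 0.0428). It was at 168.3 and 128.7 TPM in Suv39h1/2-DKO (0.70, adjusted p = 0.019). Zfp42 was above control, by less than 2-fold, in both genotypes that lack G9a with Suv39h1 and Suv39h2. It was at 641 and 620.2 TPM in G9a;Suv39h1/2-TKO (0.94, adjusted p = 0.000161) and 623.8 and 635.1 TPM in QKO (0.93, adjusted p = 6.9e-05), against 359 and 302 TPM. After scaling by median ratios both Zfp42 differences passed the 2-fold rule, at 1.06 and 1.07, as they did without the libraries of high nuclear RNA, both at 1.06 (adjusted p = 0.000235 and 8.75e-05). Klf2, Klf5 and Tfcp2l1 were called in none of these 7 comparisons with all libraries. Klf2 was called higher in G9a;Setdb1-DKO without the libraries of high nuclear RNA (1.204, adjusted p = 0.00231) or without G9a;Setdb1-DKO replicate 2 alone (1.06, adjusted p = 0.0202), and Tfcp2l1 lower in G9a-KO without G9a-KO replicate 1 (-1.03, adjusted p = 0.0119). Nr5a2 was called lower in G9a-KO without that same library (-1.33) or without the libraries of high nuclear RNA (-1.06), and Prdm14 in Suv39h1/2;Setdb1-TKO without the latter (-1.04).

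In G9a-KO all 10 members lay below control as deposited, with a median of -0.65 against -0.15 for all genes. After scaling by median ratios 8 of 10 did, since Klf4 and Klf5 changed sign. Primitive endoderm genes summed to 2121 to 2440 TPM in those libraries and 1390 to 1727 TPM in control, and 5 of 18 were called higher. Of 18 genes of the 2-cell embryo 3 were called higher, where 7.97% of all genes were called in either direction. The part of either set in the member values was not tested.

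**Figure D4:**
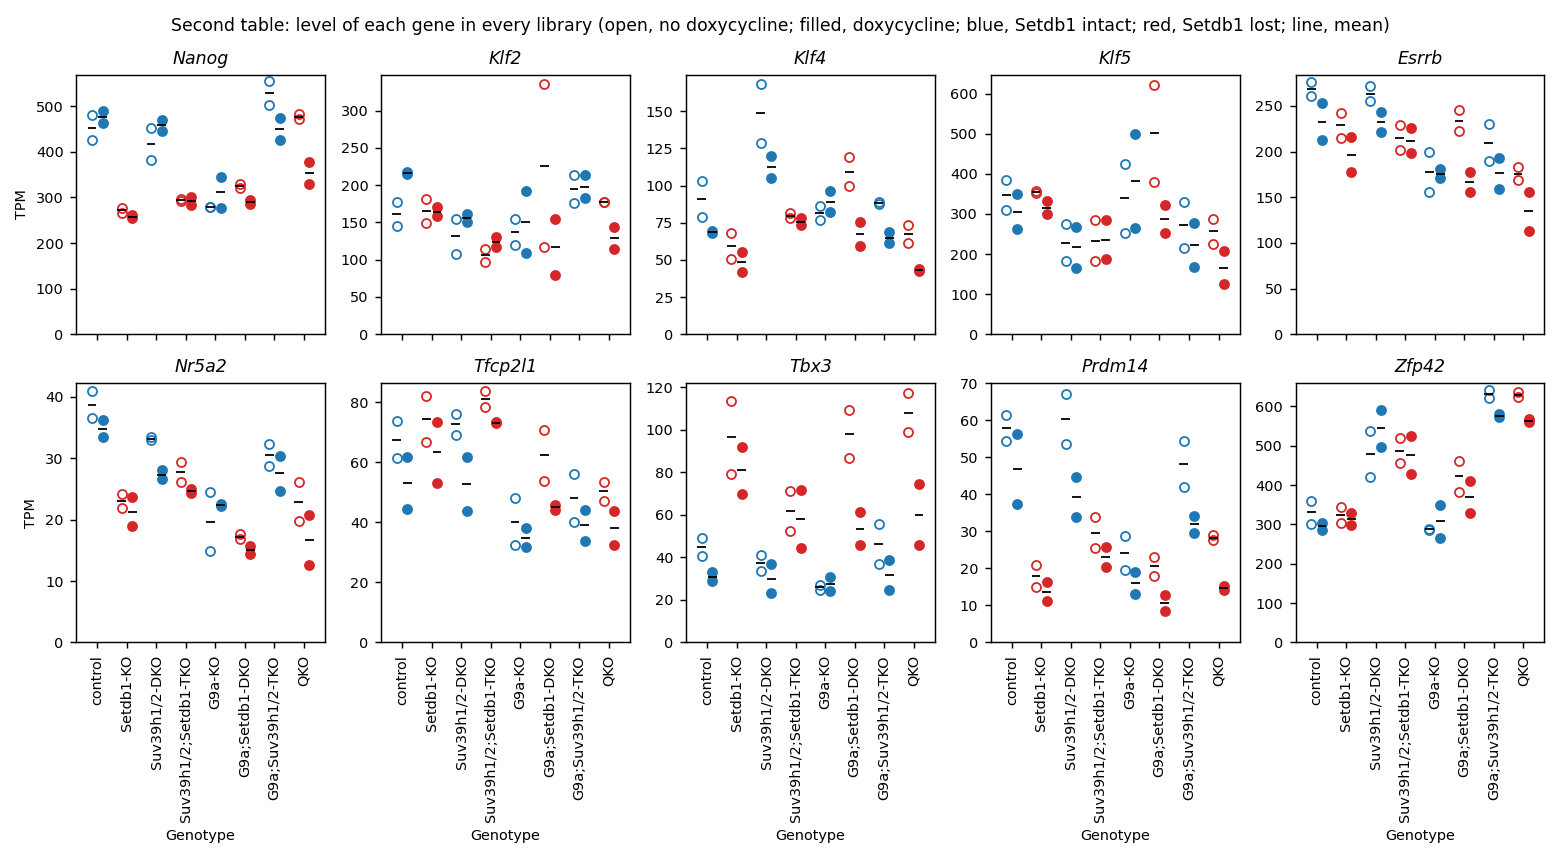
TPM of the 10 genes in every library of the second table, a panel for each gene with a linear axis from 0, with open and filled points for libraries without and with doxycycline (blue with Setdb1, red without) and a line for their mean. Prdm14 is lower with doxycycline in the mean of each of the 8 genotypes, and the 2 libraries of a group lie far apart for Klf5, with a median SD of 29.2% of the mean.

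The Setdb1 step was read on each background of the second table as well. In Suv39h1/2-DKO cells it called 1 of 10, Prdm14, against 1.64% of all genes, from 60.4 to 29.7 TPM in the mean (-1.004, SE 0.263, adjusted p = 0.0329). That call was lost after scaling by median ratios (adjusted p = 0.0657) and without any one of its 4 libraries (-0.803 to -1.205, adjusted p = 0.0771 to 0.293). Without Suv39h1/2-DKO replicate 2, Klf4 was called in its place (-1.07, adjusted p = 0.00661). In G9a-KO cells it called 1 of 10 against 4.96%, Tbx3, which rose from 25.98 to 97.97 TPM (1.87, SE 0.3, adjusted p = 0.000263), and Klf2 joined it without the libraries of high nuclear RNA (1.297, adjusted p = 0.00122). In G9a;Suv39h1/2-TKO cells it called 1 of 10 against 3.31%, Tbx3 again, from 46.4 to 108.2 TPM (1.23, adjusted p = 0.0115), a call lost without G9a;Suv39h1/2-TKO replicate 1 or QKO replicate 2. Loss of Setdb1 took Prdm14 from 24.2 to 20.5 TPM in G9a-KO cells (-0.21, adjusted p = 0.656) and from 48.1 to 28.4 TPM in G9a;Suv39h1/2-TKO cells (-0.73, adjusted p = 0.1). Both values are negative, where those of the first table were positive (0.38 and 0.59).

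The same interactions, added after the data had been seen, called 0 of 10 members in G9a-KO cells (limma, 5 at an unadjusted p under 0.05, as had 7.57% of all genes) against 0.637% of all genes. Nanog had the smallest adjusted p (0.96, SE 0.147, adjusted p = 0.00122), just under the 2-fold rule, and Klf4 (1.02, adjusted p = 0.0652) and Prdm14 (1.44, adjusted p = 0.0984) were larger in size but above the adjusted threshold. Without control replicate 2 both Nanog (1.04) and Klf4 (1.22) were called, and without Setdb1-KO replicate 2 Klf4 was (1.24). All 10 differences were above 0, as in both scalings. In G9a;Suv39h1/2-TKO cells 0 of 10 were called (2 unadjusted, as had 5.04% of all genes) against 0.449%, and in Suv39h1/2-DKO cells 0 of 10 (0 unadjusted) against 0%, where 231 of all genes had an unadjusted p under 0.05.

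Doxycycline, which turns on the Dux transgene, called none of the members in any of the 8 lines by limma. The background was 0.188% of all genes in control, 0.174% in Setdb1-KO, 0.456% in Suv39h1/2-DKO, 0.253% in Suv39h1/2;Setdb1-TKO, 0.97% in G9a-KO, 1.06% in G9a;Setdb1-DKO, 0.499% in G9a;Suv39h1/2-TKO and 0.42% in QKO. Members with an unadjusted p under 0.05 numbered 1, 0, 2, 0, 1, 5, 3 and 6 in the same order, against 6.04%, 2.05%, 6.27%, 1.61%, 8.71%, 20.5%, 8.69% and 16.1% of all genes. The 18 genes of the 2-cell embryo had higher sums with doxycycline in each line, going from 58.6 to 69.7 TPM to 567.2 to 674.6 TPM in control and from 464.7 to 509.3 TPM to 6602 to 7554 TPM in QKO.

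With all libraries, 2 values passed an adjusted p of 0.05, both under 2-fold, where 3.6% of all genes passed in G9a;Setdb1-DKO and 1.01% in QKO. Klf4 in G9a;Setdb1-DKO was at 99.6 and 118.9 TPM without and 59 and 75.3 TPM with doxycycline (-0.70, SE 0.176, adjusted p = 0.0329). Nanog in QKO was at 482.6 and 471.3 TPM without and 329 and 378.1 TPM with it (-0.43, SE 0.104, adjusted p = 0.0484). In neither did the libraries overlap. After scaling by median ratios neither passed, with Klf4 at -0.46 (adjusted p = 0.145) and Nanog at -0.18 (adjusted p = 0.828). Prdm14 was lower in the mean with doxycycline in 8 of 8 lines, from 57.9 to 46.8 TPM in control, 18 to 13.7 TPM in Setdb1-KO, 60.4 to 39.2 TPM in Suv39h1/2-DKO and 28.4 to 14.8 TPM in QKO (-0.89, SE 0.263, adjusted p = 0.103). Its smallest adjusted p was 0.0628, in G9a;Setdb1-DKO (-0.90), where it was called without replicate 1 of the dosed group (-1.17, adjusted p = 0.047). Klf2 in the same line had the widest split between replicates, at 335.6 and 116.7 TPM without doxycycline, and its difference of -0.83 became -1.11 and called without the libraries of high nuclear RNA and -1.59 without replicate 2 of the undosed group.

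All 10 members lay below 0 in Setdb1-KO, G9a;Setdb1-DKO and QKO as deposited, with medians of -0.19, -0.59 and -0.46 against -0.05, -0.22 and -0.21 for all genes. Below 0 were 8 in control, 7 in Suv39h1/2-DKO, 8 in Suv39h1/2;Setdb1-TKO and 9 in G9a;Suv39h1/2-TKO. In G9a-KO only 3 were below 0 and 7 above, with a median of 0.09. After scaling by median ratios 8, 7 and 9 lay below 0 in Setdb1-KO, G9a;Setdb1-DKO and QKO. The all-gene median moved from -0.216 to -0.012 in G9a;Setdb1-DKO and from -0.213 to -0.005 in QKO. Whether the response differed with Setdb1 was tested between lines of the same dose. No gene was called in the contrasts of Setdb1-KO with control, Suv39h1/2;Setdb1-TKO with Suv39h1/2-DKO, G9a;Setdb1-DKO with G9a-KO and QKO with G9a;Suv39h1/2-TKO (0% of all genes in each). By limma, 136, 81, 836 and 113 of all genes had an unadjusted p under 0.05 there, and 0, 0, 4 and 0 of the members.

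Genes of the pathways around these factors were counted by lists, to be read against the shares of all genes called, 6.28% in Setdb1-KO, 9.26% in G9a-KO and 15.6% in QKO of the first table. In Setdb1-KO of the first table, core pluripotency genes had 0 of 8 called (median -0.10), among them Pou5f1. LIF and STAT3 genes had 1 of 10, the LIF receptor Lifr, lower (-1.01), with a median of -0.65. FGF and ERK genes had 2 of 11 higher, the ERK phosphatase Dusp4 (2.10) and the receptor Fgfr4 (1.04). Of BMP and ID genes 1 of 8 was higher, Id3 (1.51), and of WNT genes 0 of 9 were called. Other genes of the naive state had 2 of 12 lower, Spp1 (-1.34) and the Oct4 partner Nr0b1 (-1.22). Primed epiblast genes had 1 of 10 higher, Otx2 (3.35), the homeobox factor of the primed state. With lists this short, 1 or 2 called genes are close to the share of all genes.

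In G9a-KO of the first table, core pluripotency and LIF genes had 0 of 8 and 0 of 10 called. Dusp4 was higher (2.03), the WNT target Cdx1 lower (-2.56), and Id2 (2.17) and Id3 (1.29), inhibitors of differentiation downstream of BMP, were higher. Other naive genes had 2 of 12 higher, Dppa3 (2.54) and Fbxo15 (1.62). Of the genes listed as primed, 2 of 10 were higher, Foxa2 (2.37) and Otx2 (1.59), in a group where primitive endoderm genes were higher too. Which state these 2 mark here was not tested. In QKO the other naive genes had 4 of 12 higher, led by Fbxo15 (3.54), Dppa3 (2.31) and Tcl1 (1.34), while LIF genes had 1 of 10 lower, Gbx2 (-1.18), and primed genes had 3 higher and 1 lower of 10, with Otx2 at 3.75 and Zic5 at -1.29.

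The second table without doxycycline had 2.52%, 7.97% and 14% of all genes called in Setdb1-KO, G9a-KO and QKO. Dusp4 was higher in Setdb1-KO (2.07), G9a-KO (1.48) and QKO (3.02). BMP and ID genes had 4 of 8 higher in Setdb1-KO (led by Id3, Id2 and Id1) and 4 of 8 in G9a-KO (led by Id3, Id4 and Id2). The de novo methyltransferase gene Dnmt3b was higher in G9a-KO (1.34, adjusted p = 0.000304) and in QKO (1.38, adjusted p = 0.000104) by limma. Any link to the level of Prdm14 was not tested. Other naive genes had 1 of 12 higher and 1 lower in Setdb1-KO (Tdh and Spp1) and 3 of 12 higher in G9a-KO (Dppa3, Fbxo15 and Tdh). Core pluripotency genes had 0 of 8 called in Setdb1-KO, G9a-KO and QKO. Doxycycline called 0 members of all 7 of these lists in G9a;Setdb1-DKO and QKO.

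How the members varied with each other was described by Pearson's r of group means on the log2 scale, over 9 groups in the first table and 16 in the second. Groups of a table share their normalisation, and related genotypes are not independent. In the first table the highest values were those of Esrrb with Prdm14 (0.836), Nanog with Prdm14 (0.832) and Nanog with Zfp42 (0.810), and the lowest was Klf5 with Tbx3 (-0.271). In the second table Nr5a2 with Prdm14 (0.894) and Nanog with Prdm14 (0.771) were highest, and Klf5 with Zfp42 lowest (-0.663). Nanog with Prdm14, Esrrb with Tfcp2l1 (0.761 and 0.738) and Esrrb with Nr5a2 (0.739 and 0.704) were above 0.7 in both. Klf2 with Tbx3 was at 0.782 in the first and 0.036 in the second.

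**Figure D5:**
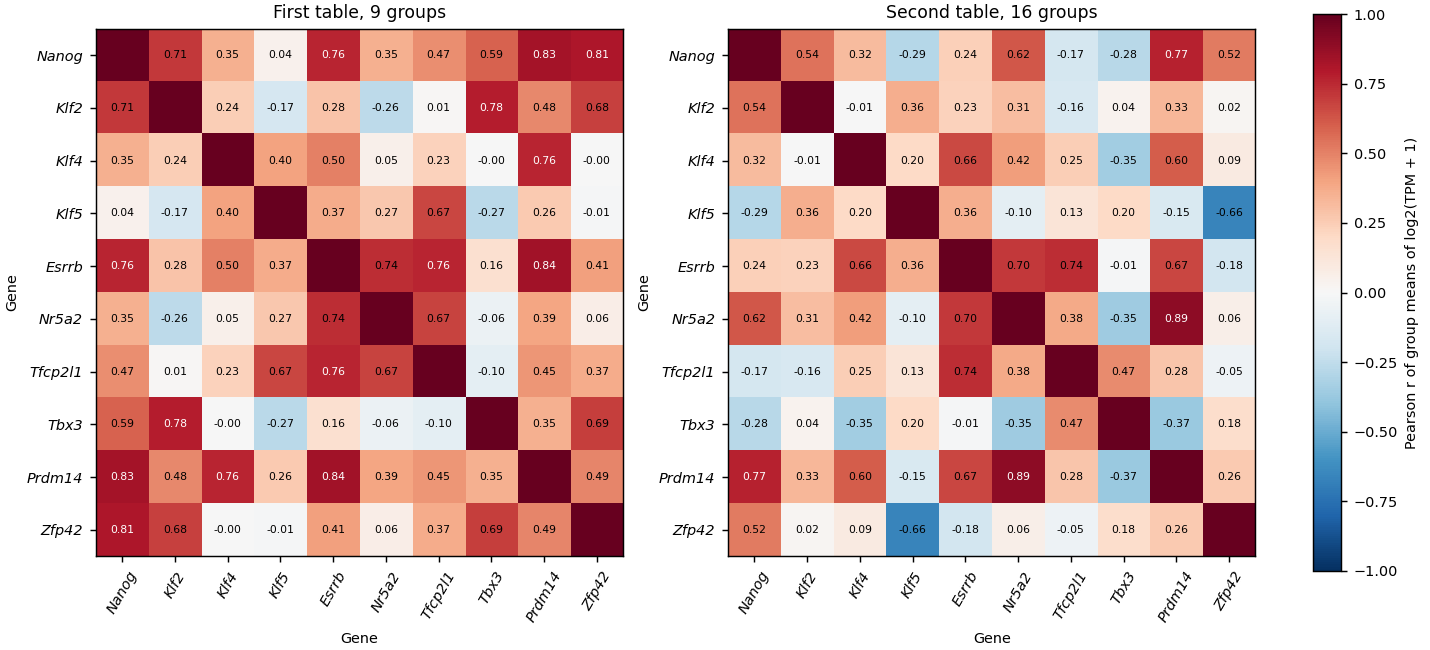
Pearson's r between the group means of each pair of the 10 genes, as a matrix for the first table (9 groups) and the second (16 groups), from blue for negative to red for positive. Nanog with Prdm14 is high in both matrices, and Klf2 with Tbx3 in the first alone.

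Among 8853 other genes of at least 5 TPM, those whose levels followed a member most closely were ranked by the smaller of the 2 correlations. For Tbx3 they were Fam168a (0.923), the kinase gene Syk (0.920) and Mertk (0.915). For Prdm14 they were Camk2b (0.907), Sorl1 (0.848) and the Nodal co-receptor gene Tdgf1 (0.836), and for Nanog they were Stat4 (0.828), Tdgf1 (0.795) and Prdm14 itself (0.771). Esrrb was followed by Cnst (0.913), Ccdc61 (0.897) and Sun2 (0.893), and Nr5a2 by Dlg3 (0.879) and Asrgl1 (0.877). The genes nearest to Klf4 were Lrrc8d (0.864), Celsr1 (0.857) and Fndc3b (0.827), those nearest to Klf5 were F2rl1 (0.843), Epas1 (0.825) and Irf9 (0.750), and those nearest to Tfcp2l1 were Fzd5 (0.842), Slc15a1 (0.835) and Edc4 (0.804). Klf2, with Pdxdc1 at 0.731, and Zfp42, with Erich1 at 0.810, had the least close neighbours. Each of these genes was chosen as the highest of the 8853, so the values describe the choice.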

How the data were processed

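RNA of TT2 mouse embryonic stem cells was read as poly(A)-selected, stranded, paired-end libraries, per the labels' protocols. Tools named in the submitters' processing notes are RSEM 1.3.1, SAMtools 1.9, STAR 2.7.10b and Bowtie2 2.3.4.1, with the mm10 build. The sources used here do not give the step each served or the gene annotation. The authors deposited TPM per gene in 2 tables, which were analysed apart. Sequencing depth cannot be had from TPM. From these values log2(TPM + 1) was computed, and genes reaching 1 TPM in 2 or more libraries (13862 and 13819) were fitted in R 4.3.3 with limma 3.58.1, using a variance trend, all groups of a table and no covariates (9 and 16 residual degrees of freedom). Adjustment was by Benjamini-Hochberg over all genes of a comparison, and a call needed an adjusted p under 0.05 with a log2 change of 1 or more. The same code was tested on simulated data.

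The 10 members were named in every comparison. From the other lists, called genes were named by size of change, at most 3 a comparison, and up to 3 genes of closest pattern per member, of which 1 is not reported here. Members and lists were chosen with earlier results of these data known. Alternatives were a pseudocount of 0.1, no filter, leaving out single libraries, a block on replicate number and scaling by median ratios. Another was a fit of the second table without its libraries of high nuclear RNA (a mean log2 Snhg level over 4). The Setdb1 interactions of the second table were added after seeing the data. Promoters came from RefSeq (GRCm38.p6) and gene coordinates from GENCODE vM21. Plots used matplotlib 3.10.9 in Python 3.11.15.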

Additional observations from a re-analysis of the deposited data

Results flagged for a closer look

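The response to Setdb1 loss differed between backgrounds for 4 genes of the first table, by a test of the difference itself in limma (n = 2 libraries per group). In G9a-KO cells the log2 change was more positive than in control cells by 1.76 for Prdm14, 1.38 for Klf4, 1.15 for Esrrb and 1.02 for Nanog. Esrrb and Nanog were under 2-fold without Setdb1-KO replicate 1 (0.925 and 0.953) or G9a;Setdb1-DKO replicate 2 (0.999 and 0.869), and Nanog also after scaling by median ratios (0.904). In G9a;Suv39h1/2-TKO cells it was more positive by 1.97 for Prdm14, 1.24 for Nanog and 1.23 for Klf4. In the second table the interactions called 0 of 10 members on either background by limma, with 5 and 2 at an unadjusted p under 0.05. In the first table, primitive endoderm genes moved on the same interaction in the other direction. In G9a-KO cells 0 of 18 were called higher and 10 of 18 lower (median -1.06), against 4.18% of all genes called in either direction. The part of the endoderm genes in these differences was not tested. No group had enough libraries for a test of single outlying ones.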

How the results depend on the processing

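Of 40 counts of called members, 39 kept their value within 1.5 times at a pseudocount of 0.1, 39 without the filter, 37 after scaling by median ratios and 40 with the replicate block. No direction of a named call reversed. At a pseudocount of 0.1, 2 members were called in G9a-KO of the second table without doxycycline (Nr5a2 added, -1.02), and without the filter 1 in Setdb1-KO (Tbx3 lost, adjusted p = 0.0549). After scaling, 1 was called in Suv39h1/2;Setdb1-TKO of the first table (Tbx3, 1.03), 1 in G9a;Suv39h1/2-TKO of the second (Zfp42) and 0 for Setdb1 loss in Suv39h1/2-DKO cells of the second (Prdm14 lost). Scaling also took Nanog in the G9a-KO interaction of the first table to 0.904. Without the libraries of high nuclear RNA, the second table called 1 in Setdb1-KO, 1 in Suv39h1/2;Setdb1-TKO (Prdm14, -1.04), 2 in G9a-KO (Nr5a2, -1.06), 1 in G9a;Suv39h1/2-TKO (Zfp42, 1.06), 2 for Setdb1 loss in G9a-KO cells (Klf2, 1.297) and 1 for doxycycline in G9a;Setdb1-DKO (Klf2).

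With the replicate number as a block, 40 of 40 counts kept their value. The numbers were not taken to pair the samples, since the labels do not say so and not every correlation of deviations passed 0.1. Of the first table's pairs of groups 25 of 36 did (-0.059 to 0.622, median 0.268), and of the second's 66 of 120 (-0.647 to 0.748, median 0.124).

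With each library left out in turn, counts in the first table ran from 2 to 4 in Setdb1-KO, 0 to 1 in Suv39h1/2;Setdb1-TKO (Tbx3, without its replicate 2), 0 to 1 for Setdb1 loss in Suv39h1/2-DKO cells (without replicate 2 of either group) and 2 to 5 and 3 to 4 for the interactions in G9a-KO and G9a;Suv39h1/2-TKO cells. In the second table without doxycycline they ran from 1 to 2 in Setdb1-KO, 0 to 1 in Suv39h1/2;Setdb1-TKO (without its replicate 2), 0 to 3 in G9a-KO (3 without its replicate 1, 2 without control replicate 1), 0 to 1 in G9a;Suv39h1/2-TKO (without control replicate 1) and 1 to 3 in QKO. For Setdb1 loss they ran from 0 to 1 in Suv39h1/2-DKO cells, 1 to 2 in G9a-KO cells (without G9a;Setdb1-DKO replicate 2), 0 to 1 in G9a;Suv39h1/2-TKO cells and 0 to 2 for the G9a-KO interaction (without control or Setdb1-KO replicate 2). Doxycycline in G9a;Setdb1-DKO ran from 0 to 1. Where 1 library of a group was left, it was assumed to vary like the other groups. Causes were not tested. With TPM alone, what depth limits could not be read.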

Other observations

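Relatives of the 10 factors, from the Klf, Prdm, T-box, nuclear receptor, Grainyhead and YY1 families, were read beside them, 21 of 25 listed genes passing the filter in each table. In the first table's QKO cells, 3 of 21 were called higher and 0 lower (limma, n = 2 libraries per group), a share close to the 15.6% of all genes called there. Klf17, an early embryonic member of the Klf family, rose from 0.397 to 4.09 TPM (log2 fold change 1.86, SE 0.12, adjusted p = 9.13e-09) and stood at 4.16 TPM in Dux-KO QKO. Klf9 rose from 62.1 to 150.3 TPM (1.26, SE 0.167, adjusted p = 2.01e-05) and was at 140.1 TPM in Dux-KO QKO. Prdm1, a relative of Prdm14 that acts in germ cell specification, rose in all 5 genotypes of the first table that lack G9a, by 1.10 to 1.78, from 0.485 TPM in control to a mean of 2.17 TPM in QKO and 4.12 TPM in G9a;Suv39h1/2-TKO. Klf15 fell in Setdb1-KO, from 6.14 to 2.56 TPM (-1.01, SE 0.138, adjusted p = 6.86e-05).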
